A study of Homo sapiens with 12 samples.

Results

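MCF10CA1a, the metastatic line of the MCF10 breast progression series, was compared with MCF10DCIS, the line of the series that models ductal carcinoma in situ, over 12259 genes. These were all genes with at least 1 TPM in either line, a level that counts a gene's transcripts as a share of all transcripts after correction for length,, out of 13108 genes that reached 1 TPM in any of the 4 lines and 59427 symbols in the table. Gene expression was measured by RNA sequencing of total RNA in MCF10CA1a, in MCF10DCIS, in MCF10AT1 (MCF10A carrying HRAS G12V) and in the parental MCF10A, with 3 libraries per line and 12 in all. Like MCF10AT1, both MCF10CA1a and MCF10DCIS are HRAS-derived lines of the series. All 4 lines were grown in the same kind of medium, DMEM:F12 with hydrocortisone, EGF, cholera toxin, insulin and horse serum, so hydrocortisone and EGF reached the cells of both lines compared here. The table holds a mean over the 3 libraries of each line and nothing per library. No difference below therefore has an error, a test or a replicate check, and the depth behind each mean is unknown. Each line is a single line, so a difference between a metastatic and an in situ stage and a difference between these particular cultures cannot be told apart.

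MCF10A is an immortalised, non-tumorigenic human breast epithelial line with basal features. Activated HRAS signals through the RAF, MEK and ERK kinases, and the descendants of the HRAS-transformed cells form lesions in mice that range from hyperplasia through ductal carcinoma in situ to invasive and metastatic carcinoma. In an in situ carcinoma the tumour cells stay behind the basement membrane of the duct. Passage through that membrane involves proteases, their inhibitors, integrins, and changes in keratins and cell contacts. These genes answer to growth factor, TGF-beta, Notch, inflammatory and steroid signals.

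By their markers both lines were epithelial, with basal genes and some luminal genes expressed. CDH1, the epithelial cadherin, had 51.9 TPM in MCF10CA1a and 42.3 TPM in MCF10DCIS, and the basal keratin KRT17 had 1046 TPM in MCF10CA1a and 971 TPM in MCF10DCIS. TP63, the transcription factor of basal epithelial cells, had 10.7 TPM in MCF10CA1a and 6.22 TPM in MCF10DCIS, a log2 difference of 0.69, under the step of 1 that is used here for calling a gene higher or lower. The basal keratin KRT14 was low, at 4.75 TPM in MCF10CA1a and 6.62 TPM in MCF10DCIS. The steroid receptors of luminal breast cells were under 1 TPM, with ESR1 at 0.156 TPM in MCF10CA1a and 0.121 TPM in MCF10DCIS and PGR at 0.000517 TPM in MCF10CA1a and 0.00235 TPM in MCF10DCIS. Other luminal genes were expressed. FOXA1 had 10.1 TPM in MCF10CA1a and 7.0 TPM in MCF10DCIS, and GATA3 4.53 TPM in MCF10CA1a and 3.22 TPM in MCF10DCIS. KRT8 had 661 TPM in MCF10CA1a and 393 TPM in MCF10DCIS, and KRT18 977 TPM in MCF10CA1a and 684 TPM in MCF10DCIS. HRAS itself had 312 TPM in MCF10CA1a and 276 TPM in MCF10DCIS, beside 126 TPM in MCF10AT1 and 50.8 TPM in MCF10A. Its log2 difference of 0.17 turns to -0.05 when structural, mitochondrial and ribosomal protein RNA are left out. Defining genes of other cell types were at or near 0. Of 12 fibroblast markers 2 reached 1 TPM in either line, of 14 leukocyte markers 3, of 8 endothelial markers 1 and of 6 adipocyte markers 2. The summed level of the leukocyte list was 16.8 TPM in MCF10CA1a and 10.3 TPM in MCF10DCIS with CORO1A at 8.9 TPM in MCF10CA1a and 2.81 TPM in MCF10DCIS and CD68 at 6.41 TPM in MCF10CA1a and 2.87 TPM in MCF10DCIS. CD14, the third member above 1 TPM and the highest of them in MCF10DCIS, had 0.224 TPM in MCF10CA1a and 3.38 TPM in MCF10DCIS, a log2 difference of -1.84 that runs against that of CORO1A at 1.38. PTPRC, CD3E and MS4A1 were at 0 or under 0.01 TPM in both lines. PPARG, the adipocyte regulator that epithelial cells also express, had 28.7 TPM in MCF10CA1a and 13.9 TPM in MCF10DCIS, and ADIPOQ was listed at 0 in both. FABP4, of the same list, had 3.49 TPM in MCF10CA1a and 0.0121 TPM in MCF10DCIS. The summed levels were 33.2 TPM in MCF10CA1a and 14.1 TPM in MCF10DCIS for the adipocyte list, 4.42 TPM in MCF10CA1a and 3.61 TPM in MCF10DCIS for the fibroblast list, and 1.61 TPM in MCF10CA1a and 2.15 TPM in MCF10DCIS for the endothelial list.

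More genes were higher than lower in MCF10CA1a, and how many more depends on the scale. On the deposited TPM, 790 of the 12259 genes (6.44%) were higher by a log2(TPM + 1) difference of at least 1, which is 2-fold in TPM + 1, and 177 (1.44%) were lower, 967 (7.89%) together, so that 81.7% of the counted genes were higher. The median difference of all genes was 0.32, with quartiles at 0.08 and 0.56. Short structural RNAs took 59.9% of all TPM in MCF10CA1a and 66.0% in MCF10DCIS. The largest of them was RN7SL1, the RNA of the signal recognition particle, with 30.8% of all TPM in MCF10CA1a and 41.8% in MCF10DCIS. Genes other than structural, mitochondrial and ribosomal protein genes took 31.1% in MCF10CA1a and 26.6% in MCF10DCIS. Rescaling those other genes to the same total in each line lowered the median difference to 0.15. It gave 749 higher (6.2%) and 344 lower (2.85%) of 12079 genes, 1093 (9.05%) together, with a share of 68.5% higher. Under median-of-ratios scaling, which sets the median difference to 0, there were 359 higher and 335 lower genes (51.7% higher), and under quantile normalization 348 and 338 (50.7% higher). On both the deposited and the rescaled TPM, 612 genes (5.07%) were higher and 174 (1.44%) lower. Among the genes named here, NRG1, ERBB3, HES1, PTGES, IFITM1, HLA-B, PLAUR, EPCAM, MKI67 and FKBP10 were higher on the deposited values but within the step on the rescaled ones. On the rescaled values alone, CDH2 and S100A8 were higher, and TGFBR2, INSIG1, PER1, SAA1 and MRPL24 lower. Just inside the step were PSMC3IP at 1.0001 and SPATC1L at -1.0008. Just outside it were VEGFC at 0.9996 and MRPL24 at -0.9985. Since the whole distribution sits above 0, list medians below are read against the median of 0.32 for all genes, and list counts against 6.44% higher and 1.44% lower.

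**Figure D1:**
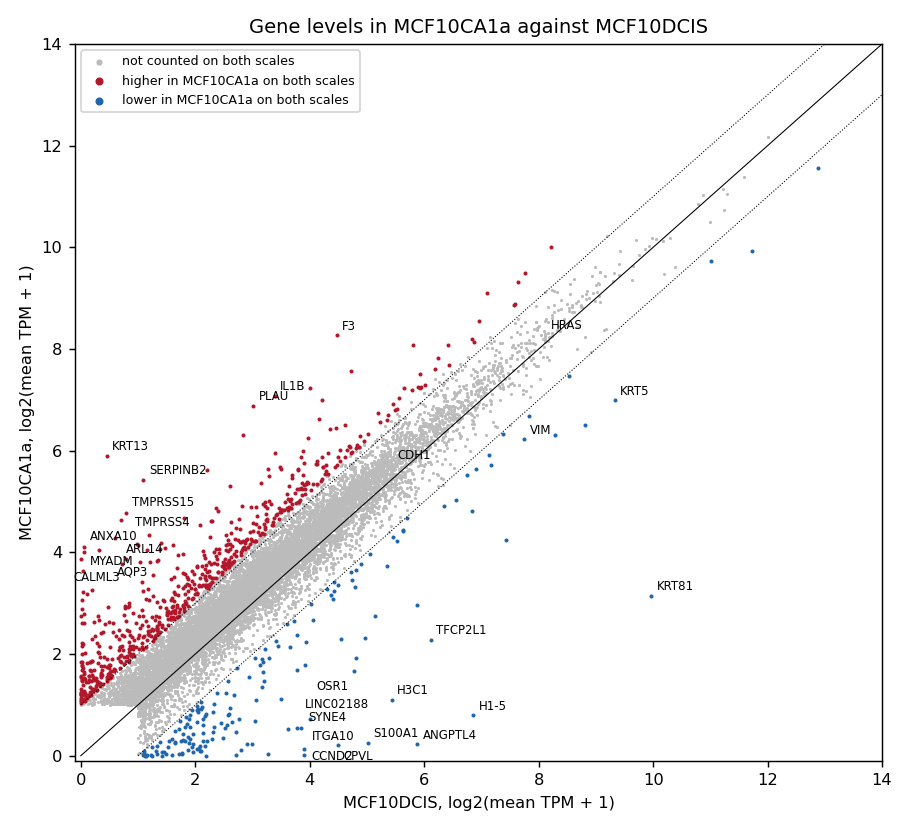
Mean expression of 12079 genes in MCF10CA1a (vertical axis) and MCF10DCIS (horizontal axis), both as log2(mean TPM + 1); each point is a gene, without structural, mitochondrial and ribosomal protein genes. The solid line marks equal levels and the dotted lines a difference of 1, red points (612) were higher and blue points (174) lower in MCF10CA1a on both scales, and the cloud lies slightly above the solid line, with a median difference of 0.32.

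The genes with the largest differences were picked among those with at least 10 TPM in either line that passed the step on both scales, the 12 highest and the 12 lowest. KRT13, a keratin of non-cornified stratified epithelia, led the higher genes with 58.9 TPM in MCF10CA1a and 0.366 TPM in MCF10DCIS, a log2 difference of 5.45. It was also low in the other lines, with 0.374 TPM in MCF10AT1 and 0.401 TPM in MCF10A. The urokinase gene PLAU had 117 TPM in MCF10CA1a against 7.07 TPM in MCF10DCIS, and SERPINB2, an inhibitor of urokinase, had 42.2 TPM in MCF10CA1a against 1.13 TPM in MCF10DCIS. F3, tissue factor and the cell-surface starter of blood clotting, had 309 TPM in MCF10CA1a against 21.2 TPM in MCF10DCIS. IL1B, an inflammatory cytokine, had 135 TPM in MCF10CA1a against 9.44 TPM in MCF10DCIS. The transmembrane serine proteases TMPRSS15 and TMPRSS4 were higher as well. TMPRSS15, known as the intestinal activator of trypsinogen, had 26.2 TPM in MCF10CA1a and 0.738 TPM in MCF10DCIS, and TMPRSS4 had 23.8 TPM in MCF10CA1a and 0.626 TPM in MCF10DCIS.

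The other higher genes of the 12 were low in MCF10DCIS. ANXA10, a calcium-dependent phospholipid-binding protein, had 16.2 TPM in MCF10CA1a and 0.0395 TPM in MCF10DCIS. CALML3, a calmodulin-like protein of epithelia, had 13.5 TPM in MCF10CA1a and 0.00317 TPM in MCF10DCIS. The water and glycerol channel AQP3 had 15.5 TPM in MCF10CA1a and 0.247 TPM in MCF10DCIS, and the small GTPase gene ARL14 had 18.4 TPM in MCF10CA1a and 0.511 TPM in MCF10DCIS. MYADM, which encodes a multi-pass membrane protein, had 15.1 TPM in MCF10CA1a and 0.0396 TPM in MCF10DCIS, but 14.7 TPM in MCF10AT1 and 38.9 TPM in MCF10A, so for this gene MCF10DCIS was the line that stood apart. F3 too was lowest in MCF10DCIS, with 84.2 TPM in MCF10AT1 and 176 TPM in MCF10A. Counted by levels, 6 genes had at least 10 TPM in MCF10CA1a and under 0.5 TPM in MCF10DCIS. They were KRT13, ANXA10, MYADM, CALML3, AQP3 and the DNA repair gene MGMT, which had 11.5 TPM in MCF10CA1a and 0.0209 TPM in MCF10DCIS, and 7.04 TPM in MCF10AT1 and 12 TPM in MCF10A.

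KRT81, a keratin of hair, was the gene with the largest difference in the other direction, with 7.87 TPM in MCF10CA1a and 1002 TPM in MCF10DCIS, a log2 difference of -6.82, and it was high in the earlier lines too, at 434 TPM in MCF10AT1 and 2100.1 TPM in MCF10A. It has close relatives among the hair keratins, so its level is uncertain where reads fit more than 1 of them. ANGPTL4, a secreted inhibitor of lipoprotein lipase, had 0.173 TPM in MCF10CA1a and 57.9 TPM in MCF10DCIS. The linker histone gene H1-5 had 0.731 TPM in MCF10CA1a and 115 TPM in MCF10DCIS, and the histone H3 gene H3C1 had 1.14 TPM in MCF10CA1a and 42.3 TPM in MCF10DCIS. H1-5 had 241 TPM in MCF10AT1 and 450.0 TPM in MCF10A. H3C1 had 201 TPM in MCF10AT1 and 186 TPM in MCF10A, so both were lowest in MCF10CA1a among the 4 lines. TFCP2L1, a transcription factor of the grainyhead family, had 3.86 TPM in MCF10CA1a and 68.2 TPM in MCF10DCIS. CCND2, the gene of cyclin D2, had 0.016 TPM in MCF10CA1a and 13.9 TPM in MCF10DCIS, and 0.0168 TPM in MCF10AT1 and 0.00757 TPM in MCF10A, and was thus above 1 TPM in MCF10DCIS alone.

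S100A1, a calcium-binding protein, had 0.197 TPM in MCF10CA1a against 31.2 TPM in MCF10DCIS, and the carboxypeptidase gene CPVL had 0.151 TPM in MCF10CA1a against 21.5 TPM in MCF10DCIS. ITGA10, the alpha chain of a collagen-binding integrin, had 0.0918 TPM in MCF10CA1a against 14 TPM in MCF10DCIS. SYNE4, a protein of the outer nuclear membrane, had 0.457 TPM in MCF10CA1a against 13.4 TPM in MCF10DCIS. OSR1, a zinc-finger transcription factor, had 0.641 TPM in MCF10CA1a against 15 TPM in MCF10DCIS, and the long non-coding RNA LINC02188 had 0.458 TPM in MCF10CA1a against 12.8 TPM in MCF10DCIS. With at least 10 TPM in MCF10DCIS and under 0.5 TPM in MCF10CA1a there were 8 genes. They were ANGPTL4, S100A1, CPVL, CCND2, ITGA10, SYNE4, LINC02188 and MUC1, a membrane mucin of luminal cells that had 0.438 TPM in MCF10CA1a and 11.2 TPM in MCF10DCIS.

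**Figure D2:**
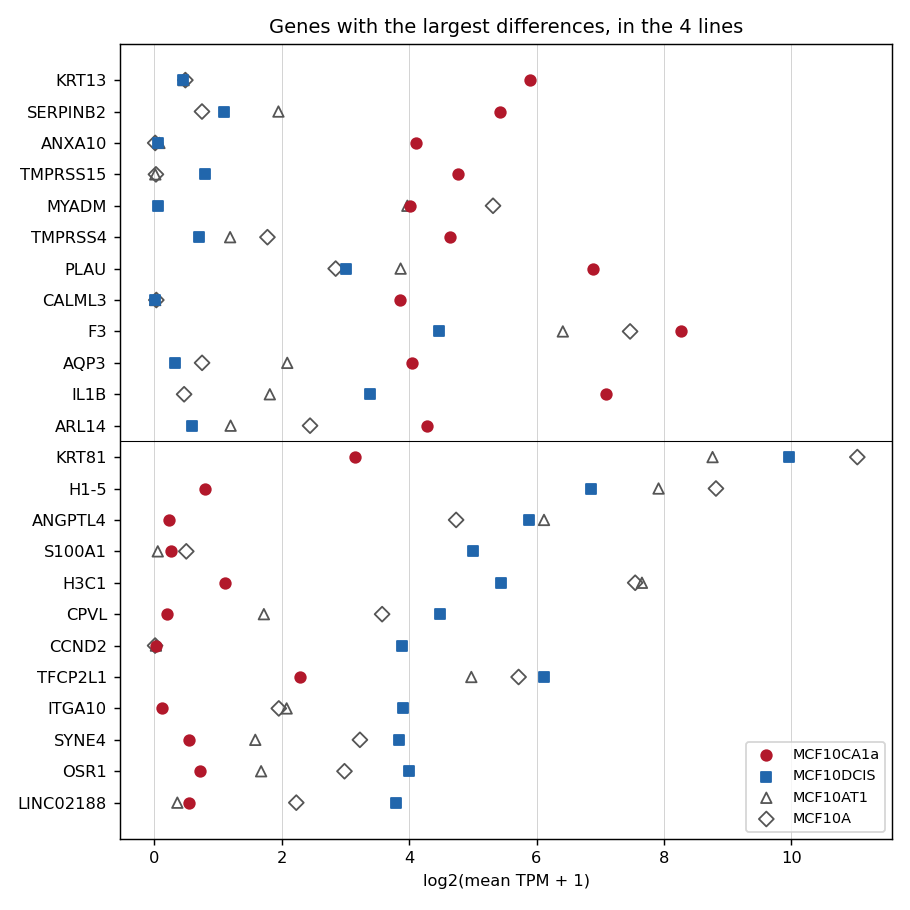
Mean expression, as log2(mean TPM + 1), of the 12 genes with the largest positive differences (above the line) and the 12 with the largest negative differences (below it) in MCF10CA1a (circles), MCF10DCIS (squares), MCF10AT1 (triangles) and MCF10A (diamonds). KRT13, ANXA10 and CALML3 were high in MCF10CA1a alone, MYADM was low in MCF10DCIS alone and CCND2 was high in MCF10DCIS alone.

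Among growth factor genes, those of the ERK pathway's output were mixed and the ligand HBEGF was higher. Of 29 compared genes of RAS and ERK output, 5 were higher and 0 lower, with a median difference of 0.47. HBEGF, a ligand of the EGF receptor, had 58 TPM in MCF10CA1a and 13.4 TPM in MCF10DCIS, and FOSL1, a subunit of the AP-1 transcription factor, had 63.9 TPM in MCF10CA1a and 22.2 TPM in MCF10DCIS. JUN had 7.25 TPM in MCF10CA1a and 2.54 TPM in MCF10DCIS. DUSP6, the ERK phosphatase often read as a measure of ERK activity, had 93.4 TPM in MCF10CA1a and 95.9 TPM in MCF10DCIS, and the ligand AREG had 154 TPM in MCF10CA1a and 232 TPM in MCF10DCIS. On the rescaled values 3 of the list were higher and 1 lower. Among 12 compared receptors, ligands and regulators of the EGF family, NRG1 at 11.2 TPM in MCF10CA1a and 4.72 TPM in MCF10DCIS and the receptor ERBB3 at 8.55 TPM in MCF10CA1a and 3.57 TPM in MCF10DCIS were also higher. The ligand EPGN had 3.9 TPM in MCF10CA1a and 22.4 TPM in MCF10DCIS and was lower, as was NRG4. EGFR had 35 TPM in MCF10CA1a and 24.2 TPM in MCF10DCIS.

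Insulin-like growth factor binding proteins went both ways. IGFBP3, which binds IGFs in the extracellular space, had 48 TPM in MCF10CA1a and 3.61 TPM in MCF10DCIS, a log2 difference of 3.41, and IGFBP6 had 31.3 TPM in MCF10CA1a and 8.79 TPM in MCF10DCIS. IGFBP2 had 5.34 TPM in MCF10CA1a and 15.6 TPM in MCF10DCIS. In all, 3 of 10 genes of this axis were higher and 1 lower. Of 13 Eph receptors and ephrins, 2 were higher, among them the receptor kinase EPHA2 at 181 TPM in MCF10CA1a and 59.9 TPM in MCF10DCIS.

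Several genes of the TGF-beta pathway were higher. Of 27 compared ligands, receptors and targets, 9 were higher and 0 lower. The median was 0.61, and on the rescaled values 10 were higher and 1 lower, with a median of 0.46. TGFBI, a matrix protein induced by TGF-beta, had 78.2 TPM in MCF10CA1a and 6.11 TPM in MCF10DCIS, but 536 TPM in MCF10AT1 and 116 TPM in MCF10A, so MCF10DCIS was the lowest of the 4 lines. The ligand gene TGFB1 had 17 TPM in MCF10CA1a and 6.74 TPM in MCF10DCIS, and the activin subunit gene INHBA had 45.2 TPM in MCF10CA1a and 13.7 TPM in MCF10DCIS. BMP7, a ligand of the BMP branch, had 4.42 TPM in MCF10CA1a and 0.473 TPM in MCF10DCIS. FST, the activin antagonist follistatin, had 38.4 TPM in MCF10CA1a and 5.09 TPM in MCF10DCIS. The type I receptor gene TGFBR1 had 8.24 TPM in MCF10CA1a and 3.09 TPM in MCF10DCIS, whereas the type II receptor gene TGFBR2 had 23.6 TPM in MCF10CA1a and 46.6 TPM in MCF10DCIS, a log2 difference of -0.95 that falls just short of the step and passes it on the rescaled values, at -1.20. PMEPA1, a target that restrains the pathway, had 54.7 TPM in MCF10CA1a and 16.4 TPM in MCF10DCIS. PMEPA1, BMP7 and TGFBR1 lie on chromosomes 20 and 9, which were raised as a whole. Without genes of such displaced chromosome stretches 6 of 18 members were higher.

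Notch and WNT genes included a few with large differences. NOTCH3, a receptor, had 16.9 TPM in MCF10CA1a and 0.968 TPM in MCF10DCIS, a log2 difference of 3.18, and NOTCH1 had 39.4 TPM in MCF10CA1a and 15.7 TPM in MCF10DCIS. The ligand JAG1 had 86.7 TPM in MCF10CA1a and 21.1 TPM in MCF10DCIS, and the target gene HES1 had 31.4 TPM in MCF10CA1a and 15.1 TPM in MCF10DCIS. HES2, of the same family, had 21.1 TPM in MCF10CA1a and 5.9 TPM in MCF10DCIS. Of 17 Notch pathway genes 6 were higher and 0 lower, with a median of 0.60. JAG1, NOTCH1 and NRARP lie on the raised chromosomes, and over the 14 others the median was 0.29, under the 0.32 of all genes. Of 22 WNT pathway genes 4 were higher and 1 lower. The ligand WNT7B had 19.2 TPM in MCF10CA1a and 1.28 TPM in MCF10DCIS, and SFRP1, a secreted WNT antagonist, had 12.3 TPM in MCF10CA1a and 39.8 TPM in MCF10DCIS.

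Many inflammatory cytokines and targets of NF-kB were higher in MCF10CA1a. Of 30 compared genes 15 were higher and 1 lower. The median was 0.98, and on the rescaled values 13 were higher and 3 lower, with a median of 0.84. IL1B had the largest difference of them, 3.70, and its levels in the earlier lines were 2.51 TPM in MCF10AT1 and 0.382 TPM in MCF10A. IL1A, the other agonist of the IL-1 receptor, had 75.4 TPM in MCF10CA1a and 14.6 TPM in MCF10DCIS, and the neutrophil chemokine CXCL8 had 188 TPM in MCF10CA1a and 25.5 TPM in MCF10DCIS. LCN2, a secreted iron-scavenging protein of epithelia, had 150.4 TPM in MCF10CA1a and 15 TPM in MCF10DCIS, and lies in a raised chromosome stretch. The acute-phase gene SAA2 had 23.6 TPM in MCF10CA1a and 3.82 TPM in MCF10DCIS. Its close relative SAA1 had 24.8 TPM in MCF10CA1a and 46.7 TPM in MCF10DCIS, and reads may be shared between them. TNFAIP3, a feedback inhibitor of NF-kB, had 8.43 TPM in MCF10CA1a and 1.11 TPM in MCF10DCIS. Other members were within the step or lower. NFKBIA, the NF-kB inhibitor and a common target, had 22.8 TPM in MCF10CA1a and 27.1 TPM in MCF10DCIS, and the cytokine LIF had 47.7 TPM in MCF10CA1a and 46.5 TPM in MCF10DCIS. ICAM1, an adhesion molecule for leukocytes, had 0.178 TPM in MCF10CA1a and 6.52 TPM in MCF10DCIS and was lower. PTGS2, the inducible cyclooxygenase, had 2.0 TPM in MCF10CA1a and 0.278 TPM in MCF10DCIS. PTGES, the synthase that acts after it to make prostaglandin E2, had 169 TPM in MCF10CA1a and 72.2 TPM in MCF10DCIS and lies on chromosome 9.

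Many interferon-stimulated genes were also higher, at levels under 30 TPM. Of 28 compared genes 13 were higher and 1 lower on the deposited and on the rescaled values, with medians of 0.93 and 0.95. OAS1, which makes the activator of an RNase in response to double-stranded RNA, had 13 TPM in MCF10CA1a and 1.32 TPM in MCF10DCIS. SAMD9, an antiviral factor, had 10.8 TPM in MCF10CA1a and 1.4 TPM in MCF10DCIS, and the ubiquitin-like modifier ISG15 had 14.5 TPM in MCF10CA1a and 2.24 TPM in MCF10DCIS. The transcription factor IRF1 had 13 TPM in MCF10CA1a and 3.74 TPM in MCF10DCIS, and IRF9, the DNA-binding subunit of the complex that type I interferon activates, had 4.61 TPM in MCF10CA1a and 1.35 TPM in MCF10DCIS. OAS1, SAMD9, ISG15, IRF1 and IRF9 were each lowest in MCF10DCIS among the 4 lines. SAMD9 had 5.61 TPM in MCF10AT1 and 14.8 TPM in MCF10A, and IRF1 had 13.3 TPM in MCF10AT1 and 12.5 TPM in MCF10A. BST2, a membrane tether of virus particles, had 83.2 TPM in MCF10CA1a and 67 TPM in MCF10DCIS, a log2 difference of 0.31. IFITM2 was the lower one, with 24.6 TPM in MCF10CA1a and 50.9 TPM in MCF10DCIS, while its neighbour IFITM1 had 22.9 TPM in MCF10CA1a and 9.89 TPM in MCF10DCIS. IFITM1 was lower in the earlier lines, at 1.97 TPM in MCF10AT1 and 0.233 TPM in MCF10A. So was BST2, at 0.977 TPM in MCF10AT1 and 0.831 TPM in MCF10A. Among 17 antigen presentation genes 3 were higher. HLA-B, a class I molecule, had 51.8 TPM in MCF10CA1a and 23.6 TPM in MCF10DCIS. The immunoproteasome subunit gene PSMB9 had 11.2 TPM in MCF10CA1a and 4.26 TPM in MCF10DCIS. CD274, the checkpoint ligand PD-L1, had 1.82 TPM in MCF10CA1a and 0.153 TPM in MCF10DCIS, and lies in a raised chromosome stretch. CD74, the class II invariant chain, had 0.0271 TPM in MCF10CA1a and 8.64 TPM in MCF10DCIS and was lower.

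The promoters of 3 interferon-stimulated genes are shown because their shared sequence element did not go with a shared difference. They are RefSeq sequences of GRCh38.p14, from 250 bases before the gene's start to 50 after it, written 5′ to 3′ on the strand of the gene. They lie at chr1:1013247-1013546 for ISG15 on the plus strand, at chr7:93117930-93118229 for SAMD9 on the minus strand and at chr19:17405581-17405880 for BST2 on the minus strand. Capitals mark matches to the core of the interferon-stimulated response element, the letters GAAA, any 2 bases and GAAA again, searched on both strands. Where matches overlap the run is continuous.
ISG15: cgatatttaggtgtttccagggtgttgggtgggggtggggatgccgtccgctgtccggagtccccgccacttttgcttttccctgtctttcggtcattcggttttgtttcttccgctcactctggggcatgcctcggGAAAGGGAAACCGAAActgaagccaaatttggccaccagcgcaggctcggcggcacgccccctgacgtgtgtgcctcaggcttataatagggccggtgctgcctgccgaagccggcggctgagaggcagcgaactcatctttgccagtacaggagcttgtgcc
SAMD9: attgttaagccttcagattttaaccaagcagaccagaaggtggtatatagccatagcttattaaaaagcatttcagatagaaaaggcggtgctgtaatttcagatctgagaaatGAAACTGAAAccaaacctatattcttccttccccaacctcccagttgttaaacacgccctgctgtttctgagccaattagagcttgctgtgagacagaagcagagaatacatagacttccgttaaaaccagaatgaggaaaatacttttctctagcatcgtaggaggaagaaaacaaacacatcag
BST2: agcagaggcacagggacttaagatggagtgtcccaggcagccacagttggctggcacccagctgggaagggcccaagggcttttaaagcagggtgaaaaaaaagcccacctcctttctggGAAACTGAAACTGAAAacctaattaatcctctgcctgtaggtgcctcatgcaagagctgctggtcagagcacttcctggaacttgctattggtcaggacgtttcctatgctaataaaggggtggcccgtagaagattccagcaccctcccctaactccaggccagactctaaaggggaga
Matches stand in 14 of the 22 compared interferon-stimulated genes with a promoter sequence at hand (63.6%), against 252 of 9301 compared genes (2.71%) and 993 of 27195 promoters of this length (3.65%). ISG15 and SAMD9 differed by 2.26 and 2.30 on the log2 scale and BST2 by 0.31, although BST2 also has the element. OAS1 and IRF1, at 2.59 and 1.57, have no match to these letters in this window. Of the whole inflammatory list, compared or not, 5 of 28 promoters hold the AP-1 letters TGANTCA (17.9%), against 7.73% of all promoters of this length. Among compared genes, 2 of 22 interferon-stimulated promoters hold these letters (9.09%), against 4.38% of all compared genes.

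**Figure D3:**
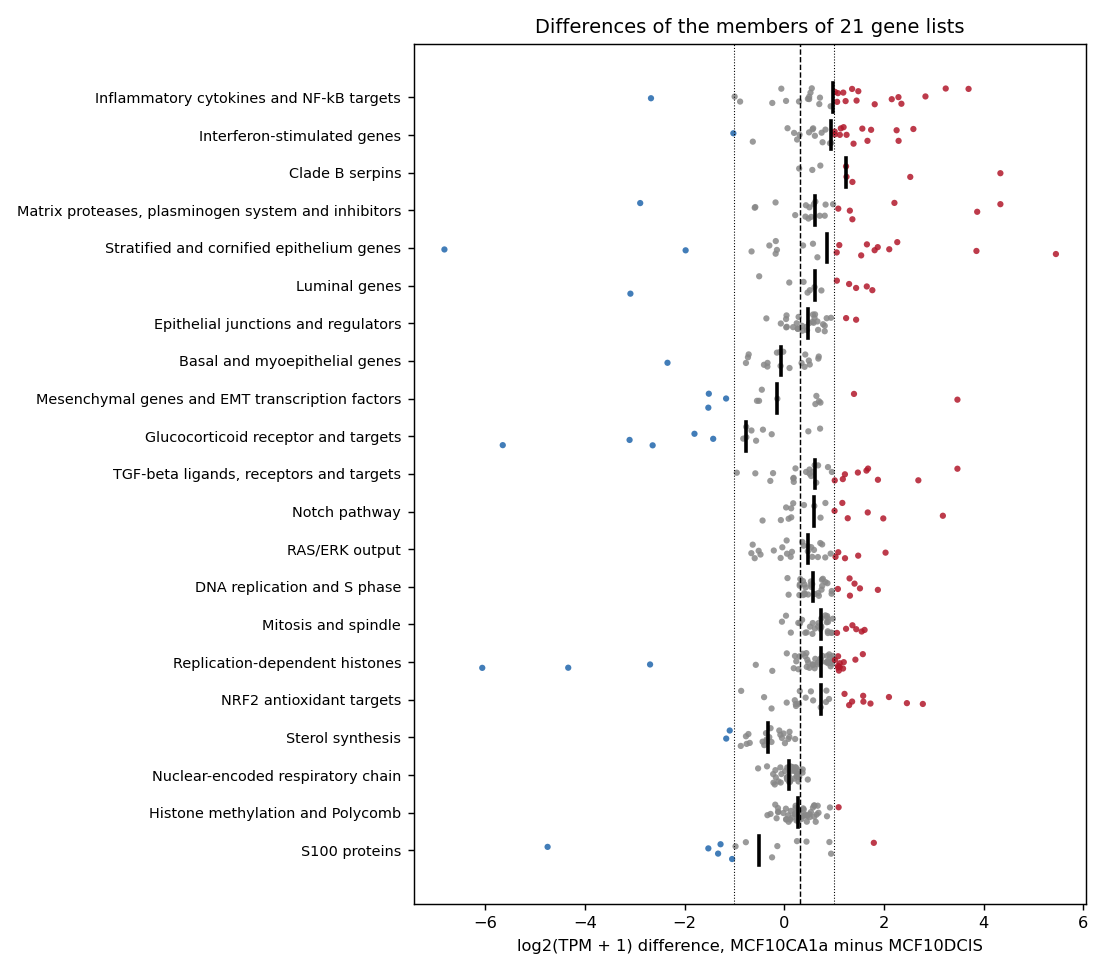
Differences in log2(TPM + 1), MCF10CA1a minus MCF10DCIS, of the compared members of 21 gene lists; each point is a gene, red at 1 or more and blue at -1 or less, and black bars mark list medians. The dashed line is the median of all genes (0.32), and the inflammatory (0.98) and interferon (0.93) medians lie right of it while those of glucocorticoid targets (-0.76), S100 proteins (-0.51) and sterol synthesis (-0.33) lie left of it.

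Several genes that answer to glucocorticoids were lower in MCF10CA1a, and none was higher; hydrocortisone was in the medium of both lines. Of 14 compared genes 0 were higher and 5 lower. The median was -0.76, and on the rescaled values 7 were lower, with a median of -1.01. FKBP5, a co-chaperone of the receptor that the receptor itself induces, had 4.0 TPM in MCF10CA1a and 30.2 TPM in MCF10DCIS, and was higher still in the earlier lines at 129 TPM in MCF10AT1 and 102 TPM in MCF10A. TSC22D3, known as the glucocorticoid-induced leucine zipper gene, had 2.17 TPM in MCF10CA1a and 26.3 TPM in MCF10DCIS, and 42.9 TPM in MCF10AT1 and 31.9 TPM in MCF10A. MT2A, a metallothionein gene that glucocorticoids and metals induce, had 973 TPM in MCF10CA1a and 3395 TPM in MCF10DCIS. The related MT1X had 29.2 TPM in MCF10CA1a and 80.1 TPM in MCF10DCIS, while MT1E had 31.4 TPM in MCF10CA1a and 22.2 TPM in MCF10DCIS. ANGPTL4, at 0.173 TPM in MCF10CA1a and 57.9 TPM in MCF10DCIS, is also a member. The receptor gene NR3C1 had 21.4 TPM in MCF10CA1a and 12.6 TPM in MCF10DCIS, a difference of 0.72 in the other direction. On the deposited values PER1, SGK1 and DUSP1 were within the step, with DUSP1 at 4.68 TPM in MCF10CA1a and 6.64 TPM in MCF10DCIS.

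Several proteases that act outside the cell, and inhibitors of them, were higher. Of 22 compared matrix proteases, plasminogen system genes and inhibitors, 6 were higher and 1 lower, with a median of 0.61. Beside PLAU at 16.6 times its level in MCF10DCIS, PLAT, the tissue plasminogen activator, had 294 TPM in MCF10CA1a and 113 TPM in MCF10DCIS, and PLAUR, the receptor of urokinase, had 61.7 TPM in MCF10CA1a and 28.5 TPM in MCF10DCIS. Inhibitors were among the higher genes too. TIMP3, an inhibitor of metalloproteinases bound to the matrix, had 50.4 TPM in MCF10CA1a and 10.1 TPM in MCF10DCIS, and TIMP2 had 17.2 TPM in MCF10CA1a and 6.29 TPM in MCF10DCIS. ADAM8, a membrane metalloproteinase, was the lower gene, with 2.77 TPM in MCF10CA1a and 27 TPM in MCF10DCIS. Of 8 clade B serpins, intracellular and secreted protease inhibitors of epithelia, 5 were higher, with a median of 1.25. SERPINB3, which has a near-identical neighbour in SERPINB4, had 16.7 TPM in MCF10CA1a and 2.07 TPM in MCF10DCIS. The secreted epithelial protease KLK6 had 28.7 TPM in MCF10CA1a and 6.88 TPM in MCF10DCIS.

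Matrix and adhesion genes showed no common direction. Of 27 collagens, laminins and matricellular proteins, 4 were higher and 3 lower, with a median of 0.16. The laminin chain gene LAMA4 had 53.4 TPM in MCF10CA1a and 13.9 TPM in MCF10DCIS, and the transmembrane collagen gene COL13A1 had 11.9 TPM in MCF10CA1a and 2.19 TPM in MCF10DCIS. FBLN1, a basement membrane glycoprotein, had 17.6 TPM in MCF10CA1a and 45.2 TPM in MCF10DCIS, and COL4A6, a chain of basement membrane collagen, had 0.929 TPM in MCF10CA1a and 5.06 TPM in MCF10DCIS. SPARC, a matrix glycoprotein that binds collagen, had 31.7 TPM in MCF10CA1a and 92.9 TPM in MCF10DCIS. Of 13 integrin genes, ITGA2, a collagen receptor chain, was higher at 44.8 TPM in MCF10CA1a and 11.8 TPM in MCF10DCIS, and ITGA10, which lies on the lowered part of chromosome 1, was lower. ITGA6, which pairs with ITGB4 in hemidesmosomes, had 196 TPM in MCF10CA1a and 147 TPM in MCF10DCIS, and ITGB4 had 330.3 TPM in MCF10CA1a and 563 TPM in MCF10DCIS. Of 25 compared genes of the Hippo effectors YAP and TAZ, their partners, regulators and targets, 5 were higher and 1 lower. The lower gene was TEAD2, of the effectors, with 3.8 TPM in MCF10CA1a and 9.68 TPM in MCF10DCIS. Besides F3 the higher genes included CCN1 at 11.5 TPM in MCF10CA1a and 3.71 TPM in MCF10DCIS. The receptor kinase gene AXL, at 76.7 TPM in MCF10CA1a and 28.4 TPM in MCF10DCIS, was another. CCN2, the usual reporter of YAP, had 4.03 TPM in MCF10CA1a and 3.49 TPM in MCF10DCIS.

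The medians of the basal and the mesenchymal list lay 0.39 and 0.46 below that of all genes. KRT5, the main basal keratin, had 126 TPM in MCF10CA1a and 643 TPM in MCF10DCIS, a log2 difference of -2.34, and was the single gene past the step on the deposited values among 19 basal and myoepithelial genes, whose median was -0.07. Its partner KRT14 had 4.75 TPM in MCF10CA1a and 6.62 TPM in MCF10DCIS. VIM, the mesenchymal intermediate filament, had 74.1 TPM in MCF10CA1a and 213 TPM in MCF10DCIS and was lower, as were SPARC and the transcription factor gene TWIST2 at 0.652 TPM in MCF10CA1a and 2.71 TPM in MCF10DCIS. TGFBI and AXL were the higher genes among the 13 compared mesenchymal genes, whose median was -0.14. Over the 12 of them outside displaced chromosome stretches 2 were higher and 3 lower, and the median was 0.09. FN1 had 3.89 TPM in MCF10CA1a and 2.01 TPM in MCF10DCIS and CDH2, the neural cadherin, 1.03 TPM in MCF10CA1a and 0.299 TPM in MCF10DCIS. Of 30 junction genes 2 were higher and 0 lower, among them the tight junction gene CLDN1 at 51.6 TPM in MCF10CA1a and 21.3 TPM in MCF10DCIS.

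Several luminal and stratified-epithelium genes were higher. Of 13 luminal genes 5 were higher and 1, MUC1, lower, with a median of 0.61. CD24, a surface glycoprotein of luminal cells, had 30.6 TPM in MCF10CA1a and 8.27 TPM in MCF10DCIS. EPCAM, an epithelial adhesion molecule, had 148 TPM in MCF10CA1a and 70.5 TPM in MCF10DCIS. The epithelial transcription factor gene ELF3 had 50.1 TPM in MCF10CA1a and 17.8 TPM in MCF10DCIS. SLPI, a secreted inhibitor of neutrophil elastase, had 268 TPM in MCF10CA1a and 84.2 TPM in MCF10DCIS. SLPI lies in a raised chromosome stretch, and MUC1 and ELF3 in lowered ones. Over the 9 luminal genes outside displaced stretches 3 were higher and 0 lower, and the median was 0.61. Of 20 genes of stratified and cornified epithelium 10 were higher and 2 lower, with a median of 0.86. PI3, the elastase inhibitor elafin, had 269 TPM in MCF10CA1a and 55 TPM in MCF10DCIS. LYPD3, a surface protein of keratinocytes, had 89.4 TPM in MCF10CA1a and 23.6 TPM in MCF10DCIS. The cornified envelope gene IVL had 4.09 TPM in MCF10CA1a and 0.182 TPM in MCF10DCIS. KRT6A, a keratin of activated keratinocytes with near-identical copies, had 78.2 TPM in MCF10CA1a and 311 TPM in MCF10DCIS. Of the 10 higher genes, PI3 lies on chromosome 20 and IVL and SPRR genes on the lowered part of chromosome 1. Over the 13 members outside displaced stretches 5 were higher and 2 lower and the median was -0.15, so the list's median rests on the genes inside them.

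Most proliferation genes differed by less than the step, with the remainder higher. Of 34 genes of DNA replication 6 were higher and 0 lower, with a median of 0.59 on the deposited and 0.42 on the rescaled values. E2F1, the transcription factor that drives S phase genes, had 10.4 TPM in MCF10CA1a and 2.11 TPM in MCF10DCIS. The origin licensing gene CDC6 had 25.9 TPM in MCF10CA1a and 8.4 TPM in MCF10DCIS. PCNA, the polymerase clamp, had 146 TPM in MCF10CA1a and 54.2 TPM in MCF10DCIS. E2F1 and PCNA lie on chromosome 20, and GINS1, also higher, lies in a raised chromosome stretch. Over the 30 replication genes outside displaced stretches 3 were higher and the median was 0.55. Of 34 mitotic genes 6 were higher and 0 lower, with a median of 0.74 on the deposited and 0.54 on the rescaled values. TOP2A, which untangles DNA before division, had 52.2 TPM in MCF10CA1a and 16.4 TPM in MCF10DCIS. The mitotic kinase gene CDK1 had 57.4 TPM in MCF10CA1a and 21.6 TPM in MCF10DCIS. MKI67, the usual marker of cycling cells, had 57.1 TPM in MCF10CA1a and 26.9 TPM in MCF10DCIS. AURKA, TPX2 and UBE2C, which were also higher, lie on chromosome 20, and over the 24 mitotic genes outside displaced stretches 3 were higher and the median was 0.79. A share of cycling cells and a level per cell cannot be told apart in these bulk libraries. This holds for every level given here.

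Histone and cell cycle control genes had single members far from the rest. Of 51 replication-dependent histone genes 11 were higher on the deposited values and 2 on the rescaled ones, and 3 were lower on both. The medians were 0.73 and 0.52. The lower genes were H1-5, H3C1 and H2BC3, the last at 0.0826 TPM in MCF10CA1a and 6.0 TPM in MCF10DCIS. Another linker histone gene, H1-2, had 561 TPM in MCF10CA1a and 308 TPM in MCF10DCIS, and H3C2, an H3 gene like H3C1, had 499.5 TPM in MCF10CA1a and 334 TPM in MCF10DCIS. Many histone genes are near-identical copies, so reads may be shared between such copies. The RNA of replication-dependent histone genes has no poly(A) tail. Besides CCND2, 13 other regulators of G1 included 2 higher genes, RBL1 at 5.42 TPM in MCF10CA1a and 2.02 TPM in MCF10DCIS and CDKN2D at 5.65 TPM in MCF10CA1a and 2.22 TPM in MCF10DCIS. Both lines expressed 2 other D cyclins, which were within the step. CCND1 had 172 TPM in MCF10CA1a and 116 TPM in MCF10DCIS, and CCND3 had 13.8 TPM in MCF10CA1a and 22.4 TPM in MCF10DCIS. Of 22 p53 targets 3 were higher and 1 lower. GDF15, a stress-induced ligand, had 120.5 TPM in MCF10CA1a and 42.6 TPM in MCF10DCIS, and TP53I3, an oxidoreductase gene, had 11.6 TPM in MCF10CA1a and 27 TPM in MCF10DCIS. CDKN1A, the cell cycle inhibitor p21, had 141 TPM in MCF10CA1a and 90.6 TPM in MCF10DCIS. MYC had 110.4 TPM in MCF10CA1a and 107 TPM in MCF10DCIS.

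No sterol synthesis gene was higher in MCF10CA1a. Of 24 genes none was higher and 2 were lower. The median was -0.33, and on the rescaled values 5 were lower with a median of -0.56. None of the 24 lay above the median difference of all genes. FDPS, which makes farnesyl diphosphate, had 101 TPM in MCF10CA1a and 228 TPM in MCF10DCIS. PMVK, an earlier kinase of the mevalonate pathway, had 14.6 TPM in MCF10CA1a and 32.4 TPM in MCF10DCIS. Both lie on the lowered part of chromosome 1. HMGCS1, which makes the precursor of mevalonate, had 34.5 TPM in MCF10CA1a and 56.3 TPM in MCF10DCIS. INSIG1, a regulator that holds back the pathway when sterols are plentiful, had 32.7 TPM in MCF10CA1a and 56.4 TPM in MCF10DCIS. Over the 21 genes outside displaced stretches none passed the step and the median was -0.27. The 19 compared genes of fatty acid synthesis and desaturation went both ways. FASN, the fatty acid synthase, was lower at 176 TPM in MCF10CA1a and 368 TPM in MCF10DCIS. ACSL5 was higher at 1.98 TPM in MCF10CA1a and 0.107 TPM in MCF10DCIS. SCD, within the step, had 126 TPM in MCF10CA1a and 141 TPM in MCF10DCIS.

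Several antioxidant genes were higher. Of 25 targets of NRF2, the transcription factor of the oxidative stress response, 9 were higher and 0 lower, with a median of 0.73. GPX2, a glutathione peroxidase of epithelia, had 97.9 TPM in MCF10CA1a and 16.9 TPM in MCF10DCIS, and 0.30 TPM in MCF10AT1 and 0.15 TPM in MCF10A. AKR1C1, a ketosteroid reductase, had 127 TPM in MCF10CA1a and 17.6 TPM in MCF10DCIS. Its near-identical neighbour AKR1C2 had 149.6 TPM in MCF10CA1a and 49.2 TPM in MCF10DCIS, and reads may be shared between them. The iron storage subunit FTL had 374 TPM in MCF10CA1a and 124 TPM in MCF10DCIS, but its partner FTH1 647 TPM in MCF10CA1a and 625 TPM in MCF10DCIS. TXN, thioredoxin, had 721 TPM in MCF10CA1a and 216 TPM in MCF10DCIS and lies on chromosome 9, while its reductase TXNRD1 had 63.7 TPM in MCF10CA1a and 24.1 TPM in MCF10DCIS. NQO1, a much-used marker of NRF2 activity, had 302 TPM in MCF10CA1a and 182 TPM in MCF10DCIS, under the step. The glutathione synthesis gene GCLC had 19.9 TPM in MCF10CA1a and 26.7 TPM in MCF10DCIS. Over the 22 members outside displaced stretches 6 were higher and the median was 0.56. Of 16 genes of xenobiotic metabolism 3 were higher. They were UGT1A6 at 60.7 TPM in MCF10CA1a and 9.46 TPM in MCF10DCIS, whose last exons are shared with the other UGT1A genes, the aldehyde dehydrogenase gene ALDH3A1, and ALDH1A3, an enzyme of retinoic acid synthesis, at 466 TPM in MCF10CA1a and 188 TPM in MCF10DCIS.

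Energy metabolism and chromatin regulators differed little. None of 44 nuclear genes of the respiratory chain and none of 13 mitochondrially encoded protein genes passed the step, with medians of 0.11 and 0.38. Over all 15 mitochondrially encoded genes compared, 2 were higher and 0 lower. Of 32 genes of glycolysis and the hypoxia response 1 was higher, ADM at 5.61 TPM in MCF10CA1a and 1.36 TPM in MCF10DCIS, and 2 were lower, CA12 at 2.79 TPM in MCF10CA1a and 8.76 TPM in MCF10DCIS and ANGPTL4. Since the study also profiled histone marks, genes of the enzymes that write and erase them were listed. Of 47 genes of histone methylation and Polycomb 1 was higher, KMT2C, a histone H3 lysine methyltransferase, at 6.46 TPM in MCF10CA1a and 2.5 TPM in MCF10DCIS, with a list median of 0.28. Of 28 genes of histone acetylation and its readers 1 was higher, the deacetylase gene HDAC9 at 9.39 TPM in MCF10CA1a and 2.63 TPM in MCF10DCIS. EZH2, the Polycomb methyltransferase, had 7.09 TPM in MCF10CA1a and 4.22 TPM in MCF10DCIS. None of 9 DNA methylation genes passed the step.

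Part of the difference followed position along the chromosomes. On the rescaled values, the median of the 506 genes of chromosome 9 lay 0.56 above that of all genes, with 131 genes higher (25.9%) and 0 lower on the deposited values, from which all counts by chromosome are taken. That of the 334 genes of chromosome 20 also lay 0.56 above it, with 107 higher (32.0%) and 1 lower. On chromosome 9, 91.3% of genes lay above the median of all genes, and on chromosome 20, 90.7%. These 2 chromosomes held 238 of the 781 higher genes among those without structural, mitochondrial and ribosomal protein genes. Among genes on chromosome 9 named above, TXN and AQP3 were higher, and ASS1, an enzyme of arginine synthesis there, had 131 TPM in MCF10CA1a and 46.1 TPM in MCF10DCIS. Stretches of other chromosomes lay below. The 539 genes of chromosome 1 between 144716079 and 248859085 (GRCh38) had a median 0.52 below that of all genes, with 11 higher and 24 lower. The 280 genes of chromosome 15 between 20408396 and 75662301 lay 0.50 below, and the 160 genes of chromosome 14 between 32075419 and 73458546 lay 0.47 below. On chromosome 17 the 120 genes between 58205441 and 76072517 lay 0.32 below.

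Taken in 289 runs of 40 neighbouring genes, the run medians had quartiles of -0.08 and 0.09 around that of all genes and a range of -0.70 to 0.73. Of these runs 23 lay at least 0.3 above and 27 at least 0.3 below. Together with the genes left over beside them at chromosome ends, which are in no run, they hold 2066 genes. A short raised stretch on chromosome 19, between 51097606 and 54155681, held 40 genes with 12 higher, a median 0.54 above that of all genes, and MYADM. Without the 2066 genes, 503 of 10193 genes were higher and 148 lower. The S100 genes sit close together on the lowered part of chromosome 1, which holds 12 of the 14 compared. Of the 14 S100 genes 5 were lower, all of them in that stretch, with a list median of -0.51. S100A2, a calcium-binding protein of basal epithelial cells, had 3016 TPM in MCF10CA1a and 7569.7 TPM in MCF10DCIS, and S100A14 had 851 TPM in MCF10CA1a and 2066 TPM in MCF10DCIS. S100A8, which forms an inflammatory pair with S100A9, had 2.91 TPM in MCF10CA1a and 1.04 TPM in MCF10DCIS. S100A9 had 62.5 TPM in MCF10CA1a and 32.9 TPM in MCF10DCIS, and both differences lay above the median of all genes. S100P, which lies outside the cluster, was higher at 1034 TPM in MCF10CA1a and 297 TPM in MCF10DCIS.

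**Figure D4:**
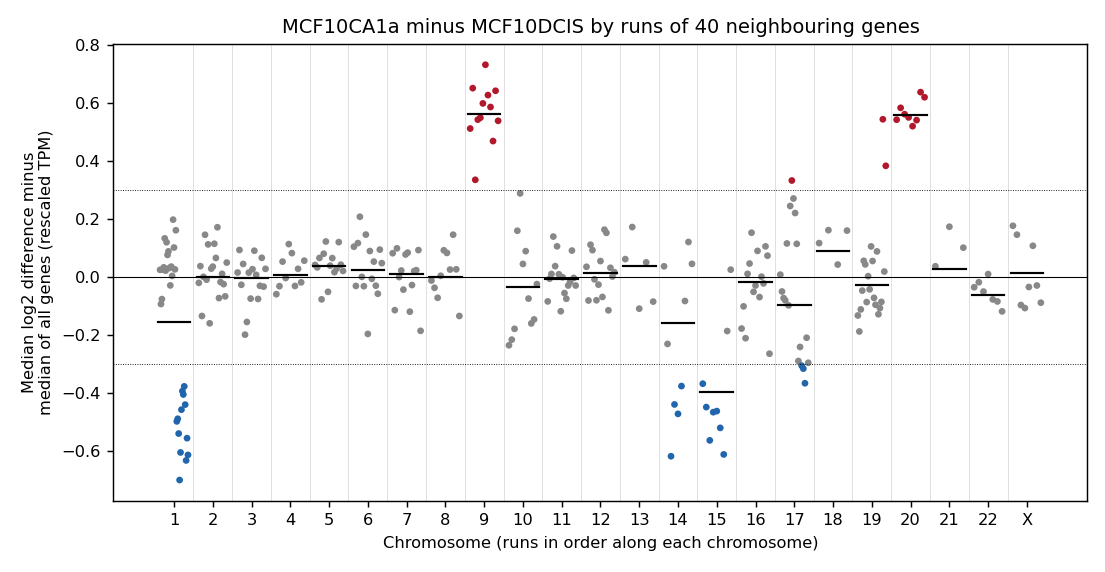
Median difference of runs of 40 neighbouring genes (points) and of whole chromosomes (black bars), MCF10CA1a minus MCF10DCIS, as log2 of rescaled TPM + 1 minus the median of all genes; runs stand in order along each chromosome. Red runs (23) lie at least 0.3 above and blue runs (27) at least 0.3 below; chromosomes 9 and 20 are raised along their length, chromosomes 17 and 19 hold the other 3 red runs, and the lowered runs lie on chromosomes 1, 14, 15 and 17.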

How the data were processed

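RNA from 4 human breast epithelial lines was sequenced from stranded total RNA libraries, 3 per line. Per the submitters' processing notes, reads were handled with STAR and edgeR on hg38; versions, quantifier, annotation and counting strand count as not given in the sources used here. As TPM, the deposited table holds the authors' mean over the 3 libraries of each line for 59427 symbols. TPM sums to 1000000 per column and keeps no read depth, so no interval or detection limit could be given, and no tool for replicated data was used.

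Genes with at least 1 TPM in MCF10CA1a or MCF10DCIS were compared as the difference in log2(TPM + 1), which understates differences of low genes. A difference of at least 1 was counted. The same was done after leaving out structural, mitochondrial and ribosomal protein RNA and rescaling to the same total. Named genes were the 12 highest and 12 lowest of those counted on both scales with at least 10 TPM in either line, 6 fixed genes (HRAS, CDH1, VIM, KRT5, KRT14 and TP63), members of 49 gene lists and leading genes of displaced chromosome stretches; other genes were chosen after their values were seen. Some genes are not reported here. The comparison and the lists were chosen with earlier results of these data known. Positions came from RefSeq GRCh38.p14, and from GENCODE 29 where RefSeq had none, for 12176 of 12259 genes. Promoters came from RefSeq GRCh38.p14 and were matched for 9301 of the compared genes. The computation was tested on simulated data. Python 3.11.15, pandas 2.3.3, NumPy 2.4.6 and Matplotlib 3.10.9 were used.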

Additional observations from a re-analysis of the deposited data

How the results depend on the processing

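No paired analysis was possible because the table holds only a mean per line; leaving out each replicate and a replicate block were planned and not run for the same reason. The 790 higher genes became 359 under median-of-ratios scaling, 348 under quantile normalization, 1369 with a pseudocount of 0.1, 503 without genes of displaced chromosome stretches (an alternative chosen after seeing the data) and 93 when a log2 difference of at least 2 was asked for. The 177 lower genes became 344 on rescaled TPM, 335 under median-of-ratios scaling, 338 under quantile normalization, 278 with a pseudocount of 0.1, 93 with a filter of 5 TPM and 39 with a difference of at least 2. Of 43 lists with at least 5 compared genes, 14 had a median at least 0.25 above that of all genes and 5 at least 0.25 below. Without genes of displaced stretches 8 lists lay above, and with no filter on low values 2 lay below. By chromosome, 2 lay above and 1 below, and 0 and 0 with no filter, which adds genes near 0 and brings medians together. Relative to all genes, the stratified epithelium median turned to -0.47 and the Notch median to -0.033 without displaced stretches, and the prostaglandin median to -0.0070 with no filter. The 24 genes with the largest differences and the 6 fixed genes gave 206 values under the alternatives, all on the same side of the step, which for the 24 was partly fixed by choosing them on both scales. HRAS and CDH1, within the step, changed sign with the scaling. Depth is unknown, so low levels carry an unknown counting error.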

Other observations

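Stress and survival genes not described above moved in few members. Of 29 compared genes of the amino acid response and the unfolded protein response 3 were higher and 0 lower, with a median difference of 0.22. STC2, a secreted glycoprotein induced by endoplasmic reticulum stress, had 23.6 TPM in MCF10CA1a and 8.51 TPM in MCF10DCIS. ATF3, a stress-induced transcription factor, had 2.79 TPM in MCF10CA1a and 0.568 TPM in MCF10DCIS. HSPA5, the main chaperone of the endoplasmic reticulum, had 139 TPM in MCF10CA1a and 91.4 TPM in MCF10DCIS. Of 13 genes of the BCL2 family 2 were higher, both of them promoters of apoptosis. BID had 57.9 TPM in MCF10CA1a and 23.6 TPM in MCF10DCIS, and PMAIP1, also a p53 target, had 4.92 TPM in MCF10CA1a and 1.68 TPM in MCF10DCIS.

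Complement and collagen-processing genes included a few past the step. CFB, a protease of the alternative complement pathway, had 4.54 TPM in MCF10CA1a and 0.59 TPM in MCF10DCIS and was higher. Of 17 collagen folding and crosslinking genes 1 was higher and 2 were lower. FKBP10, a prolyl isomerase of collagen, had 67.7 TPM in MCF10CA1a and 30.02 TPM in MCF10DCIS, and the prolyl 3-hydroxylase gene P3H2 had 8.97 TPM in MCF10CA1a and 26.6 TPM in MCF10DCIS. MXD1, an antagonist of MYC, was higher at 6.72 TPM in MCF10CA1a and 2.66 TPM in MCF10DCIS, the single one of 10 MYC network genes past the step.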
